A study of Drosophila melanogaster with 3 samples.

Results

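Of 9 genes of the insulin pathway of the fruit fly, 7 carried at least 1 peak of GFP-tagged svp in their body or within 5 kb of it, 30 peaks in all. Of all protein-coding genes 39.2% carried one, and 61.4% of those whose window was 20 kb or longer. The 9 genes, InR, chico, Lnk, Pi3K92E, Pdk1, Akt, foxo, Thor and ImpL2, were taken by name from 13968 protein-coding genes on the chromosome arms. The 30 summits, the positions of highest signal within the peaks, are among 5425 on the arms. They come from anti-GFP chromatin immunoprecipitation with sequencing (ChIP-seq) of Drosophila melanogaster white prepupae, animals at the onset of metamorphosis. The strain is a stable transgenic line in which svp, an orphan nuclear receptor gene of the COUP-TF family, carries GFP at its C-terminal end. Whole animals of both sexes were pooled, and the 3 biological replicates form 1 group. There is no second group and GFP-free flies were not analysed here. No contrast was therefore tested, and binding by svp cannot be told apart from chromatin taken up by any antibody. Whether the line carries an added copy of the svp region is not stated in the labels. In a whole-animal sample, binding in few cells and weak binding in many cells cannot be told apart.

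Insulin-like peptides bind the receptor tyrosine kinase InR, and the adaptors chico, the insulin receptor substrate, and Lnk, an SH2B family protein, carry the signal inward. Pi3K92E, the catalytic subunit of phosphoinositide 3-kinase, makes membrane lipids that recruit the kinases Pdk1 and Akt, and Pdk1 phosphorylates Akt. Akt phosphorylates the forkhead transcription factor foxo and keeps it out of the nucleus. When signalling is low, foxo raises transcription of Thor, a repressor of cap-dependent translation, and of InR itself. ImpL2 is a secreted, ecdysone-inducible protein that binds insulin-like peptides. In the larva the pathway sets growth in response to nutrition, and the fat body is one of its main tissues.

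The sequences at 14 summits show what the strongest peaks and those with a motif look like. They are the 10 of highest signal value among the 25 summits with no untranslated sequence in the window shown, and the 4 others of these 25 that hold a searched motif. Each is 101 bases of the RefSeq sequence of release 6 (dm6), centred on the summit and read on the plus strand. Capitals mark matches to a searched motif on either strand, namely the nuclear receptor half-site AGGTCA, the GATA motif GATAAG, the GAGA motif GAGAGAG and the E-box CACGTG, or to their reverse complements.
Akt and Mhcl, signal value 1280, chr3R:16097774-16097874: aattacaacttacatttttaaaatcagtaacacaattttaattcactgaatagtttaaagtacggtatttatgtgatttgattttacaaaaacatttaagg
ImpL2 intron, signal value 725, chr3L:4228325-4228425: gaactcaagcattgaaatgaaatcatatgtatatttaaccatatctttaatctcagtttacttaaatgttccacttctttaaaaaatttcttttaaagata
between Pgant4 and Thor, signal value 647, chr2L:3475397-3475497: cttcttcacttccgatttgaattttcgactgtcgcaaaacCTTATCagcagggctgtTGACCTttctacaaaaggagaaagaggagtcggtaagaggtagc
Akt intron, signal value 417, chr3R:16099893-16099993: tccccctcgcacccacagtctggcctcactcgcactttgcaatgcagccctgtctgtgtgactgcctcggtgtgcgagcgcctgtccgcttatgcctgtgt
CG43367 intron, near ImpL2, signal value 407, chr3L:4221198-4221298: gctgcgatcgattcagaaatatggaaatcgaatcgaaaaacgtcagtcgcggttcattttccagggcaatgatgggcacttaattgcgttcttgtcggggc
InR intron, signal value 316, chr3R:21591146-21591246: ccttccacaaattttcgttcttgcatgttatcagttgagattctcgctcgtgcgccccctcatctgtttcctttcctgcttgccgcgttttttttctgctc
InR intron, signal value 300, chr3R:21608797-21608897: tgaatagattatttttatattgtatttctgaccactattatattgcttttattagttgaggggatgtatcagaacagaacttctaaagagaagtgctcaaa
ImpL2 intron, signal value 297, chr3L:4231611-4231711: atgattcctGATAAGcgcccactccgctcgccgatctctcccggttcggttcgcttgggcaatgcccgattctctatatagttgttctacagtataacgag
upstream of foxo, signal value 277, chr3R:14053523-14053623: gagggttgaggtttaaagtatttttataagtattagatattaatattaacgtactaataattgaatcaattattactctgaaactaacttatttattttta
upstream of foxo, signal value 250, chr3R:14056148-14056248: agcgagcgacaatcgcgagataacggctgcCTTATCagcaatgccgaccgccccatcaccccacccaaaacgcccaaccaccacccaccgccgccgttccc
foxo intron, signal value 160, chr3R:14060541-14060641: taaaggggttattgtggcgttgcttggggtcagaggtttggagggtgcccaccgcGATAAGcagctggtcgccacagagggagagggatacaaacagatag
InR intron, signal value 159, chr3R:21604740-21604840: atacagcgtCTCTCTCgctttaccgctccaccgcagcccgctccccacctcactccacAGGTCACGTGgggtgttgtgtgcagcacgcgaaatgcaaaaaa
Mhcl start site, near Akt, signal value 158, chr3R:16094338-16094438: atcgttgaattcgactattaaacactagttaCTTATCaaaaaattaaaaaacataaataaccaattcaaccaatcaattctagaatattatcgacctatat
ImpL2 intron, signal value 151, chr3L:4233955-4234055: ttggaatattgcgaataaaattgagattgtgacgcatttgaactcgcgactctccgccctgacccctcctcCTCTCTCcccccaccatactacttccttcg

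Half-sites and GATA motifs were found at few of these summits. A half-site lay within 50 bp of 2 of the 30 summits, against 5.35% of all 5425 summits and 2.68% of windows of the same length 500 bp to either side of them. The first is at the peak between Pgant4 and Thor, which also holds a GATA motif, and the second is in an intron of InR, where it overlaps the E-box. GATA motifs lay at 5 summits, against 11.2% of all summits and 5.27% of flanking windows. These were the Thor and ImpL2 sequences with GATA capitals above, 2 peaks at foxo, with signal values of 250 and 160, and the peak at Mhcl with a signal value of 158. The GAGA motif lay at 2 summits, 1 at InR and 1 at ImpL2, against 2.30% of all summits. The E-box lay at 1 summit, against 0.848% of all summits and 1.23% of flanking windows. A half-site direct repeat with 1 base between (DR1, 1 mismatch allowed), the FOXO motif GTAAACA, the DRE TATCGATA and the CRE TGACGTCA lay at 0 of the 30, against 0.0922%, 2.43%, 0.406% and 0.111% of all summits. The peaks with signal values of 1280, 725, 471 and 915 had none of the searched motifs in these windows. Base composition varied widely, from 19.8% to 64.4% G and C, with a median of 47.5% against 37.6% over all summits and 33.7% over the 500 with the highest signal values. The peaks of 1280 at Akt, 725 at ImpL2 and 277 at foxo were AT-rich, with 21.8%, 22.8% and 19.8% G and C. Other peaks of high signal value had more, with 37.6% at 915, 44.6% at 647, 35.6% at 471 and 62.4% at 417.

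Most of the peaks lay at InR, foxo and ImpL2, which held 23 of the 30, while chico and Lnk had none. InR and foxo held 8 each, ImpL2 7, Akt 3, Pdk1 2, and Pi3K92E and Thor 1 each. Over all protein-coding genes, 39.2% had a summit in the same window. Long genes offer more sequence, and the share was 61.4% among genes with a window of 20 kb or more, where 4 of 4 members had a summit, and 35.6% among shorter ones, where 3 of 5 did. Counts of 7 or more were found in 0.945% of all genes, and in 5.69% of those with a window of 20 kb or more, where 3 of the 4 members reached it. The limits of 20 kb and of 7 summits were chosen after the counts were seen. The 9 windows, 221375 bp in all, held 1.36 summits per 10 kb, against 0.394 over the arms. By gene, ImpL2 held 3.16 per 10 kb, foxo 1.95, Akt 1.82 and InR, with the longest window, 1.35. Thor held 0.895, Pdk1 0.756 and Pi3K92E 0.634. The arms also include sequence outside gene windows, and the density over the windows of all genes is not given. The median count per gene was 2.00 in the members and 0 over all genes. The members were named with earlier results of these data known, so these figures are a description. Of the 9, 6 had a summit within 1000 bp of an own transcription start site (TSS), against 16.1% of all genes. The members have 1 (chico) to 6 (Pdk1) annotated start sites, and this share was not matched for their number. Pdk1 and ImpL2 are counted through internal start sites only.

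**Figure D1:**
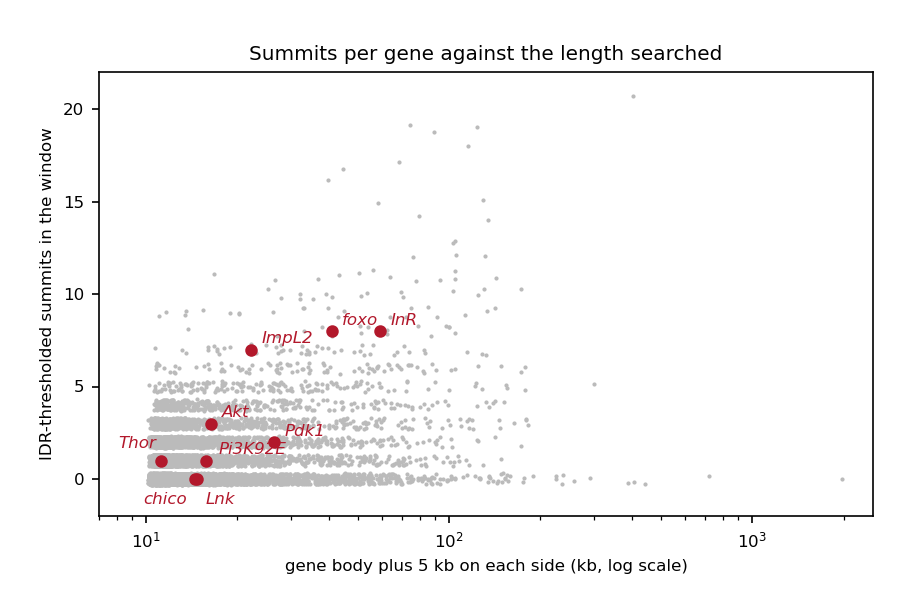
Number of IDR-thresholded summits in each protein-coding gene's window (vertical axis) against the length of the window in kb (log scale). Grey points are all genes, spread slightly along the vertical axis, and red points are the 9 members, of which InR, foxo and ImpL2 lie highest with 8, 8 and 7 summits.

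Most of the peaks were of modest height, and the highest lay at neighbouring genes or in ImpL2. The signal value is the authors' measure of peak height and has no stated scaling. In the list that passed the irreproducible discovery rate threshold (IDR), where values ran from 120 to 3228, the 30 peaks ran from 123 to 1280. Their median was 178 against 218 over the arms, and 13 of the 30 lay above that. Introns held 18 of the 30 summits, against 44.1% of all summits, and sites within 500 bp of a protein-coding TSS held 7, against 32.7%. Of the rest, 2 were intergenic, and a 5' UTR, a coding sequence and a non-coding RNA exon held 1 each. In 20 cases the summit lay in the body of the member itself. In 26 the nearest protein-coding TSS was the member's own, at ImpL2 in part one shared with CG46460. The other 4 summits were nearest to Mhcl (2), Pgant4 and Sqor, and among them were the peaks of 1280, 915 and 647.

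**Figure D2:**
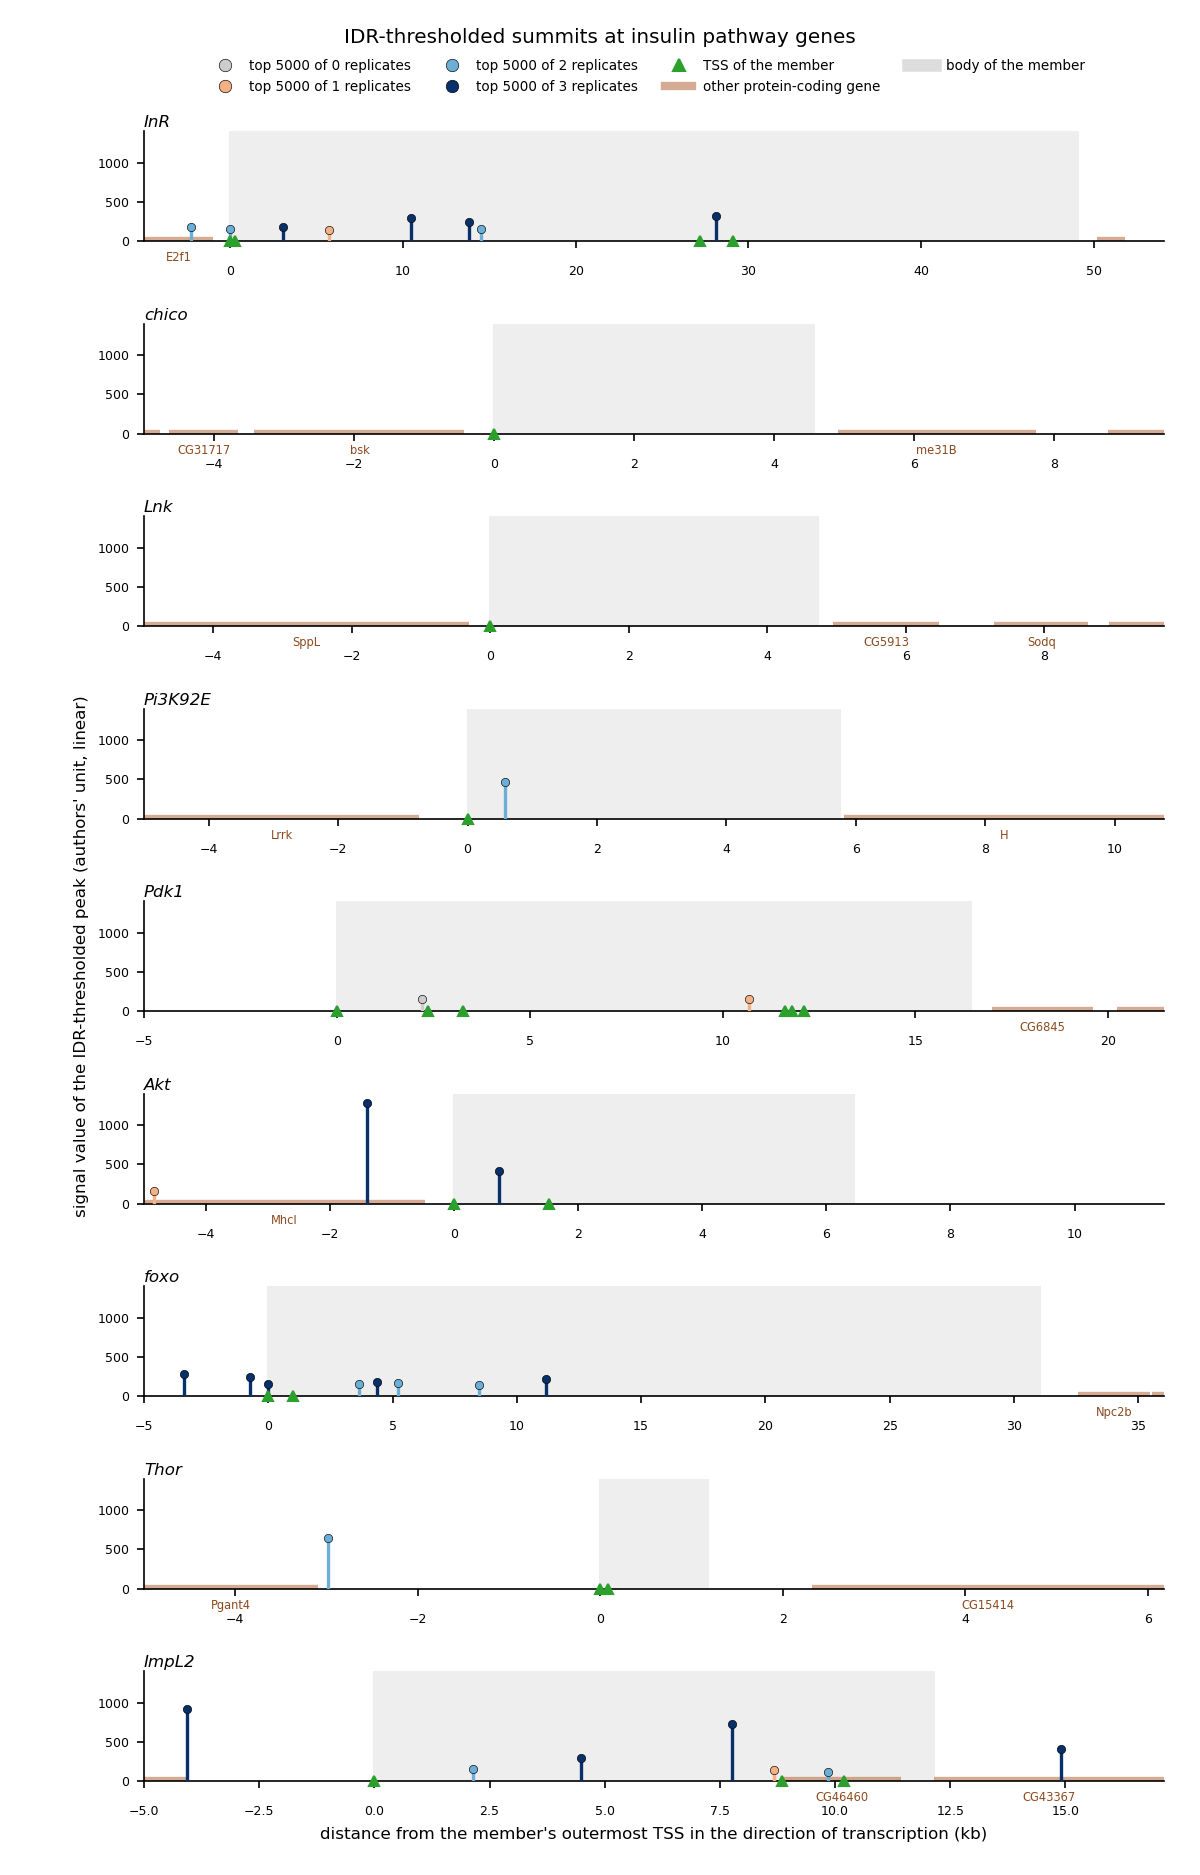
IDR-thresholded summits along the 9 genes. The horizontal axis is the distance in kb from the outermost TSS in the direction of transcription, the height is the signal value, and colour gives how many replicates had the summit among their top 5000 peaks. Brown bars are neighbouring protein-coding genes, named where space allows. The peak of 1280 stands at the Akt and Mhcl boundary, the InR and foxo peaks are lower and spread out, and chico and Lnk have none.

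Replicates were set side by side through ranks, since the signal values of separate lists share no stated scaling. Each replicate's list holds 30000 peaks, and support by a replicate means that one of its 5000 highest peaks covered the summit. The top 5000 of all 3 replicates covered 15 of the 30 peaks, against 56.7% of all IDR-thresholded peaks, and 10, 4 and 1 were supported by 2, 1 and 0. In the whole lists, 25 of the 30 were found in all 3 replicates, against 88.1% of all IDR-thresholded peaks. Where they were, the summit positions of the 3 replicates spread over a median of 66.0 bp (9 to 240 bp). Replicate 1 stood apart: 5 of the 30 summits had no peak over them in its whole list, against 9.99% of all summits, while replicates 2 and 3 lacked 0 and 1, against 0.811% and 1.66%. Summits without a replicate 1 peak had a median of 41.6% G and C over the genome, against 36.6% for the others. Those without a replicate 2 peak had 37.6%, the value over all summits, and those without a replicate 3 peak 48.0%. The part of base composition in this difference was not tested. At the tagged gene svp, a window made in the same way held 7 peaks of replicate 1, 35 of replicate 2 and 33 of replicate 3.

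**Figure D3:**
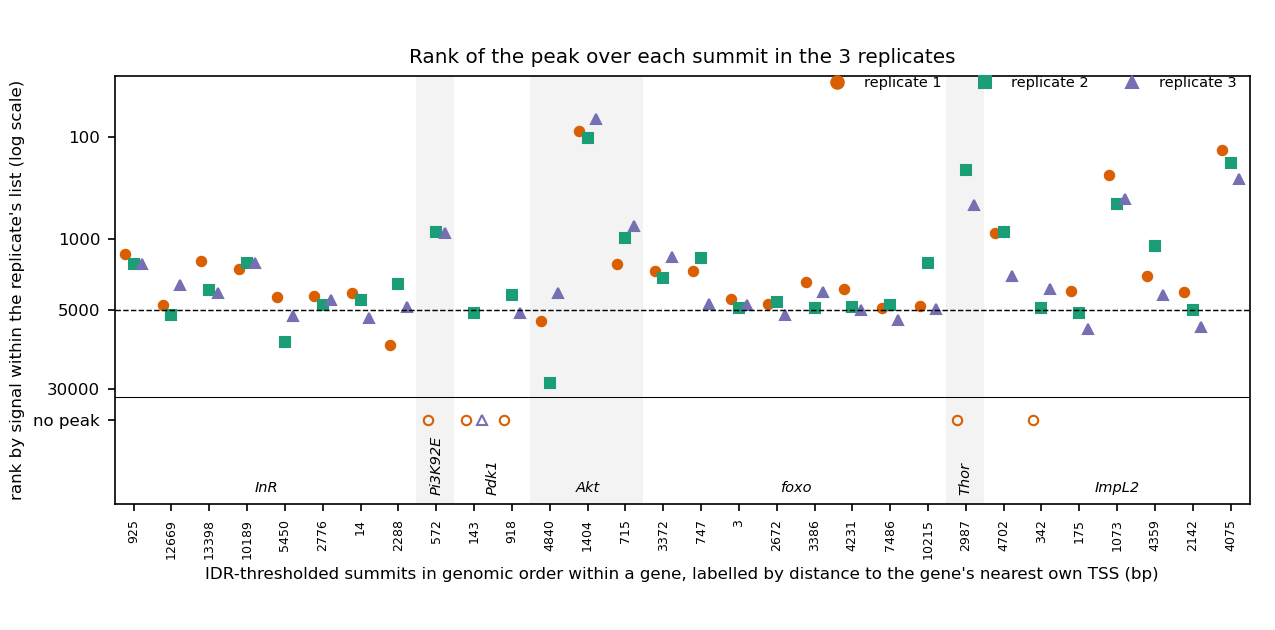
Rank of the best peak over each of the 30 summits within each replicate's list (log scale, highest signal at the top), by gene. Points above the dashed line are in the top 5000, and open symbols mark summits with no peak in that replicate. The 5 open circles of replicate 1 are at Pi3K92E, Pdk1, Thor and ImpL2.

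Support was also asked of pairs of replicates, a requirement that the 30 peaks themselves did not have to meet, so the counts cannot exceed 30. With replicate 1, 2 or 3 left out, both others supported 19, 16 and 20 of the 30 peaks. All 3 supported 15, against 56.7% of all IDR-thresholded peaks. No share over all peaks or genes is given for pairs, so the pair counts are not set against the genome. Of the members, 6, 4 and 4 had a peak supported by both others. A peak supported by all 3 replicates was found at 4 members (27.6% of all genes), and 7 had a peak with no support required. The members with a peak closer than 1000 bp to their start sites numbered 5, 3 and 3 in place of 6. Neither Pdk1 peak met the requirement in any pair. The single peaks of Pi3K92E and Thor met it only in replicates 2 and 3. At InR 5 of 8 peaks met it with each replicate left out, but not the same 5 each time. The InR peaks with signal values of 177, 159 and 162 met it only without replicate 1, 2 and 3, respectively. At ImpL2 5, 4 and 5 of 7 met it, at Akt 2 of 3 each time, and at foxo 5, 5 and 8 of 8.

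InR, the receptor gene (chr3R:21570248-21619321, minus strand), carried 8 summits, of which 6 lay in its introns. The highest (chr3R:21591096-21591308, signal value 316) was 925 bp downstream of an internal TSS. It ranked 1400, 1752 and 1756 in replicates 1, 2 and 3 (mean 1636 ± 204, SD, n = 3). Of the intronic peaks it was rivalled by one with a signal value of 300 (chr3R:21608619-21609074), 10189 bp from the nearest TSS of InR, which ranked 1972, 1742 and 1710 (1808 ± 143, SD, n = 3). The ranks of these peaks in the 3 replicates overlapped, so their order was not resolved. Between them lay a pair 729 bp apart, with signal values of 159 and 241, whose lower member holds the half-site sequence shown above. That lower peak ranked 4417, 5646 and 2814. At the first TSS of InR, 14 bp upstream, was a peak with a signal value of 162 that ranked 3404, 3960 and 5960. The last, with a signal value of 177, lay 2288 bp upstream in the coding sequence of E2f1, the cell cycle transcription factor gene next to InR. Its ranks of 11101, 2743 and 4691 placed it outside the top 5000 of replicate 1 only. The remaining intronic peaks had signal values of 138 and 176.

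Neither adaptor gene had an IDR-thresholded summit, as was the case for most genes with a window under 20 kb, of which 35.6% had one. The chico window (gene at chr2L:10242512-10247078, minus strand) held no peak in any list, the 3 replicate lists and the pooled list included. Over all genes, 14.4% had no peak in any replicate list. It also covers the kinase gene bsk and the translational repressor gene me31B, whose own windows held no IDR-thresholded summit. The Lnk window (gene at chr3R:25888542-25893270, plus strand) had no peak of replicate 1, 5 of replicate 2 and 1 of replicate 3. The best of these ranked 8818 in replicate 2 and 27177 in replicate 3, and none is in the IDR-thresholded list. Of all protein-coding genes, 35.0% had no peak of replicate 1 in the window, as did chico, Lnk and Pdk1. For replicates 2 and 3 the shares were 22.6% and 23.3%, and chico was the 1 member without a peak in each. An absent peak says only that none reached these lists of fixed length, and the read depth is unknown.

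Among the kinase genes, Pi3K92E (chr3R:20628972-20634732, minus strand) had a single peak in its 5' UTR, 572 bp downstream of the TSS (chr3R:20634052-20634273, signal value 471). It ranked 853 in replicate 2 and 884 in replicate 3, and its summits in these 2 replicates were 19 bp apart. Replicate 1 had no peak there, and its nearest summit was 2794 bp away. Over the genome, 707 IDR-thresholded peaks were in the top 1000 of both replicates 2 and 3, and 7.92% of them had no replicate 1 peak. The corresponding shares for a missing peak of replicates 2 and 3 were 0.541% and 0.717%. Pdk1 (chr3L:129450-145895, plus strand), which phosphorylates Akt, had 2 weak peaks, and neither was supported by more than 1 replicate. The first, with a signal value of 153, was 143 bp upstream of an internal TSS and was found only in replicate 2, at rank 5394. The second, with a signal value of 154, ranked 3541 in replicate 2 and 5398 in replicate 3. The whole Pdk1 window had 0, 13 and 4 peaks in the lists of replicates 1, 2 and 3.

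Akt (chr3R:16099228-16105670, plus strand) stands next to the highest peak of the set. That peak (chr3R:16097605-16098017, signal value 1280) ranked 78 in the IDR-thresholded list and 88, 103 and 66 in the replicates (mean 85.7 ± 18.6, SD, n = 3), with summits within 12 bp of each other. It lay in an intron of Mhcl, a myosin heavy chain-like gene on the opposite strand, 937 bp from a TSS of Mhcl and 1404 bp upstream of Akt, so the gene it belongs to cannot be assigned from position. Inside Akt, an intronic peak 715 bp downstream of the nearest own TSS (chr3R:16099833-16100016, signal value 417) ranked 1754, 979 and 745 (1159 ± 528, SD, n = 3). In every replicate it ranked below the Mhcl peak. The weakest peak, with a signal value of 158 at another TSS of Mhcl, was uneven between replicates, with ranks of 6399, 25983 and 3398.

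The foxo gene (chr3R:14056945-14087978, plus strand), which encodes the transcription factor restrained by Akt, carried 8 peaks of similar height around its start. All lay between 3372 bp upstream and 10215 bp downstream of the nearest own TSS, and all 8 were in the whole list of every replicate. The highest (chr3R:14053468-14053671, signal value 277) was the most distant upstream and ranked 2087, 2432 and 1511 (2010 ± 465, SD, n = 3). A second upstream peak with a signal value of 250, 747 bp from the TSS, ranked 2077, 1558 and 4348 (2661 ± 1484, SD, n = 3), so the spread between replicates exceeds the difference between the pair. The peak at the TSS itself, 3 bp upstream, had a signal value of 155 and ranked 3897, 4780 and 4443. Of the 5 intronic peaks, 3 lay within 2 kb of one another, with signal values of 160, 179 and 172. The other intronic peaks had signal values of 137 and 216, and the latter ranked 4601, 1709 and 4895. Of the 8, 5 were supported by all 3 replicates and 3 by 2.

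Thor (chr2L:3478434-3479612, plus strand), the translational repressor gene induced by foxo, had a strong peak at some distance and a weaker signal at its start. The strong peak (chr2L:3475253-3475645, signal value 647) lay 2987 bp upstream, in an exon of the non-coding RNA gene CR45372 and past the 3' end of Pgant4, a glycosyltransferase gene. It ranked 211 in replicate 2 and 464 in replicate 3, with summits 8 bp apart, and had no peak in replicate 1, whose nearest summit was 1041 bp away. This is the peak that holds both a half-site and a GATA motif. At the TSS of Thor, each replicate had a peak below its top 5000, at ranks 5965, 6413 and 7278, none of which reached the IDR-thresholded list. In all, the short Thor window had 9, 6 and 8 peaks in the lists of replicates 1, 2 and 3, or 6.86 ± 1.37 per 10 kb (SD, n = 3).

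ImpL2 (chr3L:4224006-4236147, minus strand), whose product sequesters insulin-like peptides, had the densest peaks of the 9 genes, 3.16 IDR-thresholded summits per 10 kb. Inside it the highest (chr3L:4228205-4228533, signal value 725) was intronic, 1073 bp upstream of a TSS that ImpL2 shares with the overlapping gene CG46460. It ranked 238, 452 and 408 in the replicates (366 ± 113, SD, n = 3), with summits within 26 bp. A narrower intronic peak of 127 bp with a signal value of 297, which holds a GATA motif, ranked 2326, 1185 and 3575. The 3 weakest peaks of the gene, with signal values of 123, 147 and 151, lay 342, 175 and 2142 bp from an own TSS. The first of them had no peak in replicate 1. Outside the gene, a peak with a signal value of 915 (chr3L:4239846-4240521) ranked 135, 181 and 256 (191 ± 61.1, SD, n = 3). It lay 49 bp from a TSS of Sqor, a sulfide quinone oxidoreductase gene, and 4075 bp upstream of ImpL2. A peak with a signal value of 407, in an intron of CG43367 beyond the 3' end of ImpL2, ranked 881, 861 and 2329. Without flanking sequence, 5 of these 7 peaks remained.

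In the full replicate lists, weak peaks included, ImpL2 and Thor had the highest mean number of peaks for their length. ImpL2 had 7.53 ± 1.38 peaks per 10 kb (SD, n = 3), foxo 5.28 ± 1.62, Akt 4.26 ± 1.82 and InR 2.88 ± 0.943, against 2.18 over the arms in each replicate. The arms also include sequence outside gene windows. Values for ImpL2, Thor and foxo overlapped between replicates, as did those for Thor, foxo and Akt. Within each replicate, ImpL2 stood above foxo, and Thor and foxo stood above Akt. Thor stood above ImpL2 in replicate 1 (8.05 against 6.32) and below it in replicates 2 and 3. The order of Thor against ImpL2 and foxo was therefore not resolved. In replicate 2, foxo (6.09) stood above Thor (5.37). InR had 1.86 in replicate 1, below the arms, and 3.72 and 3.05 in replicates 2 and 3. Pdk1 (2.14 ± 2.52), Lnk (1.36 ± 1.80) and Pi3K92E (1.27 ± 0.634) ranged across or below the level of the arms. In total the 9 windows held 53, 100 and 86 peaks of replicates 1, 2 and 3, and 26, 30 and 25 of their top 5000. Replicate 1 had the fewest peaks in the whole lists and a number between those of the others in the top 5000, and it lacked the peaks at Thor and Pi3K92E that ranked in the top 1000 of both other replicates.

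**Figure D4:**
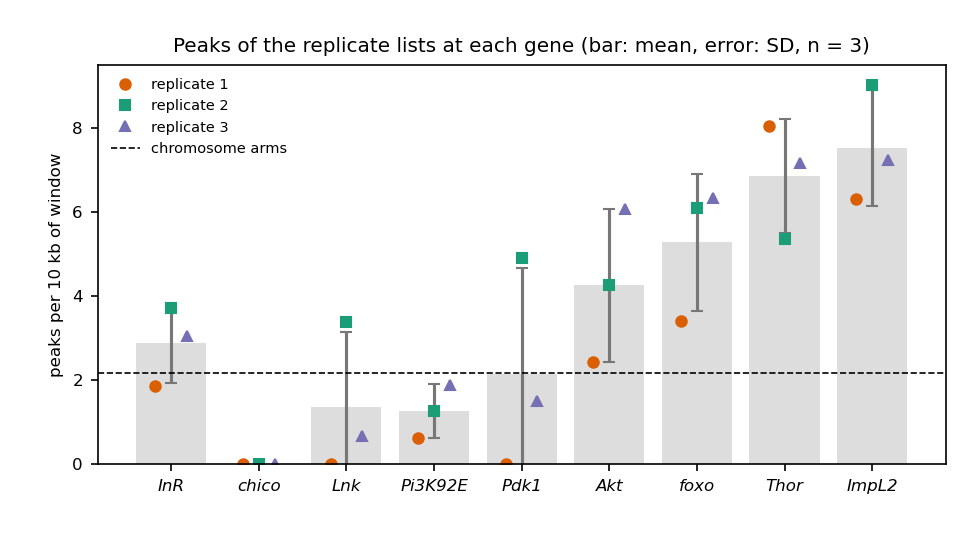
Peaks per 10 kb of window in each replicate's list of 30000 for the 9 genes. Bars are means, error bars are SD over 3 replicates, points are replicates, and the dashed line is the density over the chromosome arms, 2.18. ImpL2, Thor, foxo and Akt lie above the line in every replicate, and chico is at 0.

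Other genes of the pathway were examined from a list of 29, of which 16 had a summit in the window, against 39.2% of all genes, and 10 had one within 1000 bp of a start site, against 16.1%. The list was drawn up by pathway role with earlier results of these data known, so these figures are a description. The shares over all genes were not matched for window length or number of start sites. Among the ligands, 2 of 8 had a summit. Ilp6, the insulin-like peptide gene expressed mainly in the fat body, had 3, the highest with a signal value of 342. Ilp7 had 1 of 170, nearest to a TSS of Mnt. Ilp1, Ilp2, Ilp3, Ilp4, Ilp5 and Ilp8 had none. Sdr, which encodes a secreted decoy of the receptor, had 2, the highest with a signal value of 291 at 603 bp from its TSS. All 5 genes acting next to the receptor or phosphoinositide 3-kinase had summits. The highest were 331 at Pi3K21B, the regulatory subunit gene, 195 at dock, 154 at step, 339 at susi (annotated as B4) and 941 at Ptp61F, a phosphatase gene with 11 summits over a long window. The peaks at Pi3K21B and Ptp61F were nearest to TSSs of Plc21C and SA2.

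Among genes that act on Akt or its activity, the highest values were 787 at Sin1, nearest to Achl, 449 at trbl, which encodes an inhibitor of Akt, 195 at wdb, a regulatory subunit gene of the phosphatase PP2A, and 531 at melt, 306 bp from its TSS. Summits were absent at rictor and Phlpp. Among 8 partners and targets of Akt and foxo, 4 had one. The values were 943 at sgg, the glycogen synthase kinase 3 gene, 272 at Crtc, 362 at daw, the gene of an activin-like ligand, and 561 at Lip4, a lipase gene. For daw the nearest TSS was that of CG2964. No summit lay at 14-3-3epsilon, 14-3-3zeta, Sirt1 or tobi. Of the 60 summits at these genes, 39 (65.0%) were supported by all 3 replicates, against 56.7% of all IDR-thresholded peaks.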

How the data were processed

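The samples are 3 biological replicates of anti-GFP ChIP-seq from whole white prepupae of the svp-GFP line, numbered by the labels. Per the deposited manifests, a replicate's dm6 peak list derives from its own alignments and 1 control file, the pooled list from all 3 replicates and that control, and the optimal IDR-thresholded list from these peak lists. The sources used here do not name the aligner, peak caller, control material or IDR threshold. Replicate and pooled lists hold 30000 peaks each, so their length is not a measure of the samples, and read depth is unknown. The signal value and the −log10 q-value of each peak are as deposited by the authors. The q-values, 2.35 to 3.11 as −log10 at the 30 peaks, were not used. All 5443 IDR-thresholded peaks are in the pooled list.

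The genes were annotated with Ensembl 115 (FlyBase 6.54) on dm6, and coordinates count from 1. Of 38 gene symbols, 38 matched, 1 through a RefSeq synonym. A summit was assigned to every member whose body or 5 kb flank held it. A replicate supported a peak where its 5000 peaks of highest signal value included one covering the summit. With 1 group there was no test. Motifs were searched within 50 bp of summits on both strands, without a mismatch except for DR1. The members, lists and motifs were chosen with earlier results of these data known. All members, every listed gene with a summit and, where nearer, the neighbouring gene are named. The dm3 lists were not used, and 1 listed gene is not reported here by name. The steps were tested on simulated data. Python 3.11.15, numpy 2.4.6, pandas 2.3.3, scipy 1.17.1 and matplotlib 3.10.9 were used.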

Additional observations from a re-analysis of the deposited data

Results flagged for a closer look

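The pooled list, which the counts above do not use, held signal at Thor outside the IDR-thresholded peaks. In the Thor window, 4 pooled peaks outside those peaks lay over a peak of every replicate's list. They were listed here because 4 is above the 3 that a count of 0 allows, a limit that does not say how often such peaks occur: 20.2% of the 23615 pooled peaks outside the IDR-thresholded ones on the arms were of this kind, and 3.04% of genes had 4 or more. The pair nearest the TSS, 88 and 28 bp away, had pooled signal values of 98.4 and 84.1 and pooled ranks of 6582 and 7618. These 2 overlap and rest on the same peak of replicate 3, at rank 7278, so the 4 are not separate. The other members had 0 to 2 such peaks, 10 in all with Thor, among 38 pooled peaks outside the IDR-thresholded ones in the 9 windows. No GFP-free sample was used, and the cause was not tested.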

How the results depend on the processing

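The number of members with a summit, 7, was 6 or 7 with the gene body only, with 2 or 10 kb on each side, with the higher 50% of signal values or with the nearest TSS only, and 4 to 6 when a replicate was left out. The 30 summits became 20, 24 and 33 with the gene body only, 2 kb and 10 kb, 26 with the nearest TSS only, 13 with the higher 50% of signal values and 16 to 20 when a replicate was left out. Support by all 3 replicates was 50% (exact 95% interval 31.3 to 68.7, counting error over peaks only). The interval takes the peaks as independent, though most lie at InR, foxo and ImpL2. Support became 84.6% among the peaks with the higher 50% of signal values and 73.3% with the top 10000 peaks. It became 83.3% with the whole lists and 30% with 50% reciprocal overlap. Leaving out a replicate gave 53.3% to 66.7% supported by both others. Over all IDR-thresholded peaks, support was 56.7% and became 88.1% with the whole lists. No share over all peaks is given for the other settings, so those changes are not set against the genome. Members with a summit near a TSS numbered 4 within 500 bp and 3 to 5 when a replicate was left out. Within 100 bp of the summit in place of 50 bp, 4 summits had a half-site, 8 a GATA motif, 4 a GAGA motif, 1 a FOXO motif and 1 a CRE. Over all summits the shares within 100 bp were 8.42%, 19.7%, 5.22%, 5.20% and 0.424%, in the same order. The other pathway genes with a summit, 16, ranged from 11 with the gene body only to 16. Thor had no summit with the gene body only or with 2 kb, so its highest value could not be recomputed there. The highest signal value fell to 216 at foxo with the gene body only and to 250 with 2 kb, to 417 at Akt with the gene body only and to 725 at ImpL2 with 2 kb or less. A wider window or a longer replicate list can only add peaks, and other causes were not tested. Leaving out a replicate adds the requirement of support by both others within a list made from all 3, so it can only lower the counts of peaks and members. No paired analysis was possible because there is 1 group.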
